A study of Mus musculus with 12 samples.

Results

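Caspases are cysteine proteases that cut other proteins after aspartate residues. They are made as inactive precursors, so the level of a caspase transcript is not a measure of protease activity. Initiator caspases are activated on protein platforms (Casp8 at death receptors, Casp9 on the apoptosome, Casp2 on the PIDDosome), executioner caspases such as Casp6 then cut structural proteins of the dying cell, and the inflammatory caspases (Casp1, Casp4) act at inflammasomes, where they process cytokines and open membrane pores through gasdermin D. In the growth plate, the layered cartilage that lengthens a long bone, the most mature hypertrophic chondrocytes reach a border where cartilage is mineralized, resorbed and replaced by bone.

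The 7 caspase genes described here (Casp1, Casp2, Casp4, Casp6, Casp8, Casp9 and Casp12) were a given list, and the probe set that stands for each was selected by a measured value, the highest mean log2 signal over all arrays. They are 7 of the 18193 genes named by a probe set with a single gene symbol, and they have 11 of the 45101 probe sets on the array. The 12 Affymetrix arrays measured total RNA of tibiae from untreated CD1 mouse embryos at embryonic day 15.5, cut by hand into zone I (resting and proliferating chondrocytes), zone II (prehypertrophic and hypertrophic chondrocytes) and zone III (the most mature hypertrophic chondrocytes with the mineralized part), with 4 arrays per zone lettered A to D. Segments of all embryos of a litter were pooled by zone before RNA isolation, according to the study's methods, so that n counts litters and not embryos, and no genotype, strain or treatment differed between the zones. The mean level that chose a probe set is a description only: Casp12 was read from a probe set with a mean log2 signal of 5.03 in place of another at 4.76, Casp9 from 1 at 5.97 in place of 5.13 and 3.37, and Casp6 from 1 at 8.44 in place of 4.06, while the other 4 genes had 1 probe set each.

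All arrays had been scaled to the same 2% trimmed mean of 150.0 signal units, and between 18359 and 21121 probe sets per array reached a signal of 50. Differences between zones were tested with limma on log2 signals for the 22255 probe sets whose mean reached 50 in 1 zone or more, and a gene is said to have risen or fallen in the first-named zone of a comparison, such as zone II versus I, at a Benjamini-Hochberg adjusted p under 0.05 over all of these. Markers were compared with the zone names: 5 of 5 hypertrophic chondrocyte markers rose in zone II versus I, 8 of 8 chondrocyte markers fell in zone III versus II and 7 of 7 tested osteoblast markers were higher in zone III than in zone I. Of the markers of adjoining tissue, 5 of 7 fibrous tissue markers fell in zone II versus I and 5 of 7 rose in zone III versus II, 1 of 6 skeletal muscle markers fell in each of the 3 comparisons, and 1 of 3 erythroid markers rose in zone III versus II with 0 called in the other 2 comparisons by limma. With quantile normalization or median centring (each array set to its median log2 signal) 4 fibrous tissue markers and 0 erythroid markers rose in zone III versus II. Some markers, such as Col10a1 and Mepe, reached the filter only through the zones where they were high, so the marker counts are a description. Each array read a whole tissue segment, so fewer cells of a type and less RNA per cell cannot be told apart.

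Casp1, Casp4, Casp8 and Casp12 were lowest in zone II, Casp6 and Casp9 were highest in zone III, and Casp2 was highest in zone I. In zone II versus I, 5 of the 7 fell (Casp1, Casp2, Casp4, Casp8 and Casp12) and 0 rose, and over all probe sets tested 22.2% fell and 15.1% rose. In zone III versus II, 6 of the 7 rose and 0 fell, beside 28.5% of all probe sets that rose and 20.9% that fell. In zone III versus I the genes split: Casp1, Casp6 and Casp9 were higher in zone III and Casp2 and Casp12 were lower, beside backgrounds of 21.0% and 19.0%. The median log2 difference over the 7 genes was -0.66 in zone II versus I and 1.07 in zone III versus II, and the median over all probe sets tested was -0.07 and 0.09. In zone III versus I these medians were 0.65 and 0.01. All 7 genes passed the filter on low signals, but Casp1 and Casp4 only through zone III, Casp12 only through zone I and Casp9 only through zones I and III, so their differences were in part a condition of being tested and the counts are given as a description. The 3 comparisons share arrays, so they are not independent of each other.

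**Figure D1:**
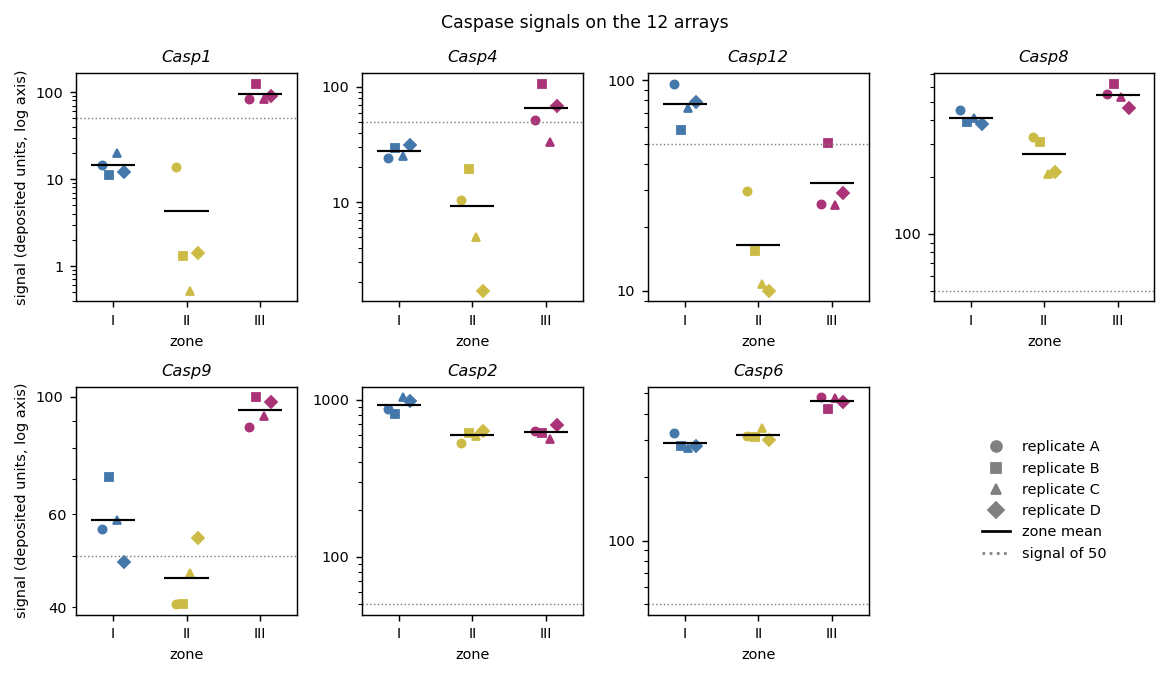
Deposited signal of the 7 caspases on each of the 12 arrays, on a log axis with its own range for each gene. Symbols are replicates A to D, black lines are the means of the 4 arrays of a zone, and the dotted line marks a signal of 50. Casp1 lies between 83.2 and 125 in zone III and at 19.7 or below in the other zones, and Casp2 (816 to 1045) and Casp12 (57.9 to 96.2) are highest in zone I, with zones II and III overlapping in both.

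The summed macrophage, osteoclast and endothelial markers were, like Casp1, Casp4, Casp6, Casp8 and Casp9, highest in zone III. So were 7 osteoblast markers, summed at 11857 to 13088 there, and 5 of the 7 rose in zone II versus I. In that comparison Casp6 and Casp9 were not called. The summed signal of 10 macrophage markers was 1044 to 1883 in zone I, 619 to 941 in zone II and 5149 to 6222 in zone III. Of the 7 macrophage markers tested, 3 fell in zone II versus I and 7 rose in zone III versus II (6 with quantile normalization or median centring), while Aif1, Fcgr1 and Cd163 were under the filter. In zone III versus I 5 were higher, Mrc1 was lower (-1.02 ± 0.27, limma adjusted p = 0.01) and Adgre1 did not pass. The summed signal of 10 osteoclast markers was 946 to 1084 in zone I, 884 to 1970 in zone II and 13399 to 15847 in zone III; 10 of 10 rose in zone III versus II, and 2 rose and 2 fell in zone II versus I. The summed signal of 10 endothelial markers was 940 to 1595, 396 to 743 and 3194 to 3582. Of these markers 10 of 10 fell in zone II versus I and rose in zone III versus II. The osteoclast markers Ocstamp, Calcr, Oscar, Dcstamp and Atp6v0d2 and the endothelial markers Tie1 and Pecam1 reached the filter only through zone III. Their rise was in part a condition of being tested, and the marker counts are a description. Within zone II, replicate A had the highest sum of all 3 lists (941, 1970 and 743) and also the highest Casp1, Casp8 and Casp12 signals (13.9, 328 and 29.7), whereas Casp4 was highest in replicate B (19.5) and Casp9 in replicate D (54.1). Within zone III, replicate A had the highest macrophage and osteoclast sums (6222 and 15847) and replicate B the highest endothelial sum (3582), and Casp1, Casp4, Casp8, Casp9 and Casp12 were all highest in replicate B. The part of these cells in the caspase differences was not tested.

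**Figure D2:**
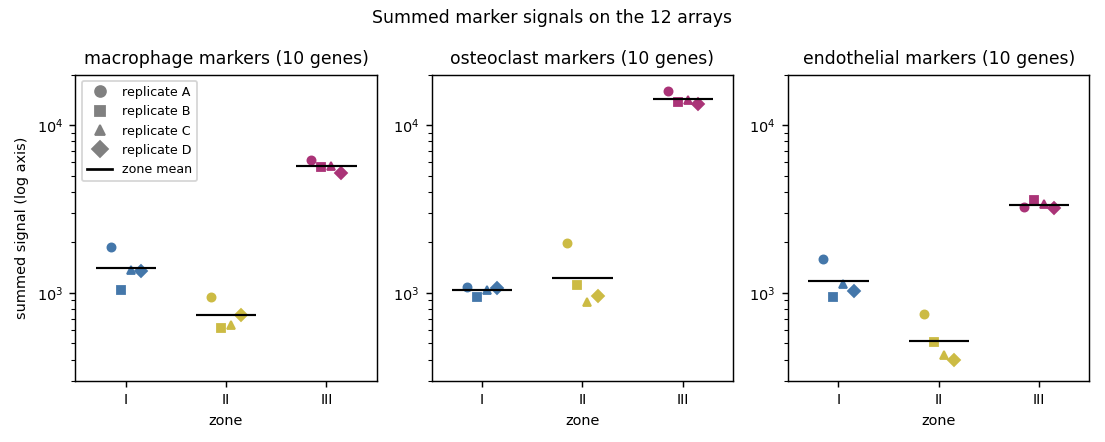
Summed signal of 10 macrophage, 10 osteoclast and 10 endothelial markers on each of the 12 arrays, on log axes; symbols are replicates A to D and black lines are means of 4 arrays. In zone III the sums lie at 5149 to 6222, 13399 to 15847 and 3194 to 3582, above every array of zones I and II.

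Casp1, Casp4 and Casp12 lie next to each other on mouse chromosome 9, with 0 other genes of the RefSeq table starting between them, and all 3 fell in zone II versus I and rose in zone III versus II, the rise of Casp12 not passing with quantile normalization or median centring. The profiles of these neighbours were not the closest among the 7 caspases. Over the 12 arrays the Pearson correlation of Casp12, on the probe set that stands for it, was 0.52 with Casp1 and 0.60 with Casp4. Its other probe set was not used for these values. The correlation of Casp1 was 0.82 with its neighbour Casp4, 0.94 with Casp8 on chromosome 1 and 0.81 with Casp9. In zone III versus I, Casp1 and Casp12 went opposite ways (2.75 and -1.27). The promoters of the 3 neighbours are shown because of their position, with that of Casp9, which lies on chromosome 4, for comparison. Each sequence runs 5′ to 3′ on the plus strand from 250 bases before to 50 bases after the annotated start (RefSeq, build GRCm38.p6), and capitals mark matches on either strand to any of 6 motifs: the GC box GGGCGG, the STAT motif TTCNNNGAA, the AP-1 motif TGANTCA, the PU.1 core GAGGAA, the TATA motif TATAAA and the NF-kappaB motif.
Casp1 promoter, chr9:5298267-5298566: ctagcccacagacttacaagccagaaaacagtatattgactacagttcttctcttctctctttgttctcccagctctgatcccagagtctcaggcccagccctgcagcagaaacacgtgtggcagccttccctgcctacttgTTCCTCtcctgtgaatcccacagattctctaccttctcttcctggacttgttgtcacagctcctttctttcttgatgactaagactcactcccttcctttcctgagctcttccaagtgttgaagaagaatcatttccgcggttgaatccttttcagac
Casp4 promoter, chr9:5308599-5308898: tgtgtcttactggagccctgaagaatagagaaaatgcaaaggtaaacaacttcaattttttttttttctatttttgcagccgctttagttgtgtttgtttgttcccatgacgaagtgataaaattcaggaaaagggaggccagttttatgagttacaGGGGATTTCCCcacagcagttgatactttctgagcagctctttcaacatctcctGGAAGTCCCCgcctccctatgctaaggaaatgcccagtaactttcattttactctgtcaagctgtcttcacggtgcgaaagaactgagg
Casp12 promoter, chr9:5345226-5345525: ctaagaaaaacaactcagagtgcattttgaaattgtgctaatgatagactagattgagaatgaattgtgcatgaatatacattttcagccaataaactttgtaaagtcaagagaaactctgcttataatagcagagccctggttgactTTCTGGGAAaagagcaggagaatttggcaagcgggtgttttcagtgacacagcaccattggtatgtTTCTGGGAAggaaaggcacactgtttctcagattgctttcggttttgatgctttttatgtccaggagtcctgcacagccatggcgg
Casp9 promoter, chr4:141793362-141793661: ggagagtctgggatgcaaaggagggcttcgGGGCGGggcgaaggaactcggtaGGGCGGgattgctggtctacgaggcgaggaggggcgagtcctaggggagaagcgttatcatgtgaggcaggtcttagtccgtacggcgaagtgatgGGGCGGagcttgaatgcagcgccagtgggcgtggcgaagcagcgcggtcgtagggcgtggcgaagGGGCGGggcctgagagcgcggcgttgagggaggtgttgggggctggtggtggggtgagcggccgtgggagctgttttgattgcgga

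The promoters of the 3 neighbours had a GC content below the median, at 48.0% for Casp1, 42.0% for Casp4 and 41.0% for Casp12, with 3, 5 and 3 CpG dinucleotides; the medians over the 32851 promoters of the table were 52.7% and 7 CpG. Casp8 (chromosome 1, 42.0% and 5 CpG) resembled them. The promoters of Casp9 (66.0% and 28 CpG), Casp2 (chromosome 6, 63.7% and 26 CpG) and Casp6 (chromosome 3, 62.0% and 16 CpG) were richer in both. A GC box was found 4 times in the Casp9 promoter, 3 times in that of Casp6 and 2 times in that of Casp2, and in none of the other 4 genes; 35.7% of all promoters held at least 1. The Casp4 promoter held 3 matches to the NF-kappaB motif, 2 of which overlap each other (8.46% of all promoters had a match), the Casp12 promoter 2 copies of the STAT motif (8.3%), and the Casp1 promoter 1 PU.1 core (28.3%), which was also present once each in the Casp2 and Casp6 promoters. No match to the AP-1 motif (7.81% of all promoters) or the TATA motif (13.6%) lay in any of the 7 promoters. A match says only that these letters occur in the window.

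Casp1, the caspase that matures interleukin 1 beta and interleukin 18, was the member with the largest difference in zone III versus II. Its signals in replicates A, B, C and D (the order used for all signals of single arrays) were 14.5, 11.1, 19.7 and 12.1 in zone I, 13.9, 1.30, 0.518 and 1.43 in zone II, and 83.6, 125, 83.2 and 89.8 in zone III. All zone III arrays were above every other array, and zone II replicate A lay within the range of zone I. In zone III versus II the log2 signal rose by 5.62 ± 0.73 (SE, n = 4 and 4, limma adjusted p = 4.2e-05), a 49.2-fold difference whose size rests on zone II signals near 0: with 16 units added to every signal it was 2.49, without zone II replicate A it was 6.57 and without zone II replicate C it was 4.99. Zone III was also above zone I, by 2.75 ± 0.73 or 6.71-fold (adjusted p = 0.00946). In zone II versus I Casp1 fell by 2.87 ± 0.73 on the log2 scale (adjusted p = 0.00827), but the arrays of these zones overlapped. That difference was -0.62 with 16 added, -3.82 without zone II replicate A and -2.24 without zone II replicate C, and within the first of 3 fluidics runs (the array processing runs recorded with the arrays) it was 0.13, opposite in sign. The summed macrophage, osteoclast, endothelial and osteoblast markers were also highest in zone III, and the part of these cells in the Casp1 differences was not tested.

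Casp4, the mouse counterpart of the caspases that sense cytoplasmic lipopolysaccharide, was also lowest in zone II. It read 24.2, 29.6, 25.3 and 31.5 in zone I, 10.5, 19.5, 4.97 and 1.69 in zone II, and 51.6, 107, 33.2 and 68.5 in zone III. The arrays of each zone were apart from those of the other zones, and the spread was widest in zone II on the log scale. Casp4 fell in zone II versus I by 2.09 ± 0.60 (adjusted p = 0.0154) and rose in zone III versus II by 3.21 ± 0.60, 9.24-fold (adjusted p = 7.1e-04). Without zone II replicate D these differences were -1.45 and 2.56, and with 16 units added they were -0.84 and 1.66. The log2 difference between zones III and I was 1.11 ± 0.60 and did not pass the test (adjusted p = 0.162), although no zone III array was as low as a zone I array. It passed without zone II replicate D (adjusted p = 0.0487), with only the 8 arrays compared (0.0156) and with 16 units added (0.82, adjusted p = 0.0176).

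Casp12, a caspase associated with the endoplasmic reticulum, was highest in zone I. It read 96.2, 57.9, 73.7 and 78.9 in zone I, 29.7, 15.5, 10.8 and 10 in zone II, and 25.7, 50.1, 25.5 and 29.0 in zone III. Every zone I array was above every array of the other zones, and zones II and III overlapped through zone II replicate A. The log2 signal fell in zone II versus I by 2.34 ± 0.33, 5.05-fold (limma adjusted p = 1.5e-04). It rose in zone III versus II by 1.06 ± 0.33, 2.09-fold (adjusted p = 0.0168), and remained below zone I by 2.42-fold, a log2 difference of -1.27 ± 0.33 (adjusted p = 0.00805). That rise lost its call when 1 of several arrays was left out: it was 0.84 without zone III replicate B (adjusted p = 0.0544), 0.91 without zone II replicate C (0.0505) and 0.87 without zone II replicate D (0.0521). The call was also lost with quantile normalization (0.82, adjusted p = 0.0604) and median centring (0.82, adjusted p = 0.0564), and the log2 difference was -0.21 within the first fluidics run.

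A second probe set of Casp12 that passed the filter gave the same 3 calls with a deeper minimum. Its signals were 140, 58.7, 121 and 88.0 in zone I, 5.22, 4.45, 3.81 and 4.43 in zone II, and 47.3, 69.6, 39.8 and 35.5 in zone III, so that on this probe set zones II and III did not overlap. The log2 differences were -4.44 ± 0.27 in zone II versus I, 3.38 ± 0.27 in zone III versus II and -1.06 ± 0.27 in zone III versus I (limma adjusted p = 2.0e-07, 7.0e-07 and 0.00702). The 2 probe sets share a direction in every comparison and differ in size.

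**Figure D3:**
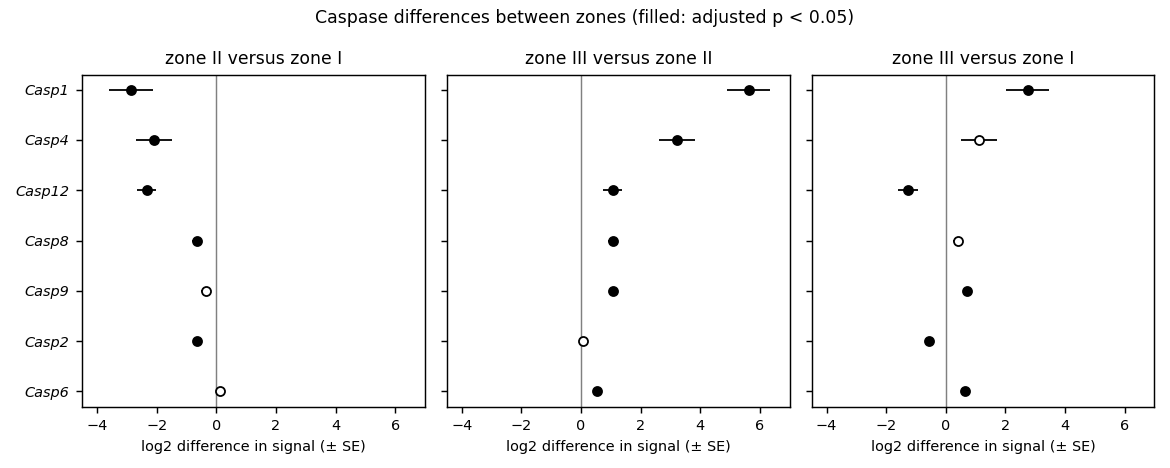
Log2 difference in signal between zones for the 7 caspases, with bars of 1 SE from the limma fit on 12 arrays; filled points have an adjusted p under 0.05. Casp1, Casp4 and Casp12 have the largest differences in zone II versus I (-2.87, -2.09 and -2.34), and Casp12 and Casp2 are lower in zone III than in zone I.

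Casp8, the initiator at death receptors, combined a low point in zone II with a high one in zone III. Its signals were 454, 392, 410 and 383 in zone I, 328, 306, 208 and 213 in zone II, and 549, 625, 533 and 466 in zone III. No 2 zones overlapped. Casp8 fell in zone II versus I by 0.66 ± 0.16 on the log2 scale (limma adjusted p = 0.00676) and rose in zone III versus II by 1.07 ± 0.16, 2.09-fold (adjusted p = 1.6e-04). The difference between zones III and I, 0.40 ± 0.16, did not pass (adjusted p = 0.0675), and this call depended on the fit. It passed without zone II replicate A (adjusted p = 0.0451), with ribosomal centring, which sets each array to its ribosomal protein genes (0.56, adjusted p = 0.0164) and in fits blocked on fluidics run (0.47, adjusted p = 0.0346) or on replicate letter (0.40, adjusted p = 0.0387), as well as with only the 8 arrays compared, a variance trend or array weights (adjusted p = 0.024, 0.0483 and 0.046).

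Casp9, which is activated by Apaf1 and cytochrome c, was highest in zone III. It read 56.1, 70.5, 58.4 and 48.6 in zone I, 40.5, 40.5, 46.4 and 54.1 in zone II, and 87.8, 100, 91.9 and 98.0 in zone III. Zones I and II overlapped and lay below all zone III arrays. Casp9 rose in zone III versus II by 1.07 ± 0.14, 2.09-fold (limma adjusted p = 3.7e-05), and was above zone I by 0.71 ± 0.14, 1.63-fold (adjusted p = 0.00129). In zone II versus I the log2 difference of -0.36 ± 0.14 did not pass (adjusted p = 0.0548). It was -0.45 and passed without zone I replicate D or without zone II replicate D (adjusted p = 0.0267 and 0.0244), and it also passed with ribosomal centring (-0.61, adjusted p = 0.0123) and with the median of the probe sets of each gene (adjusted p = 0.0462). Its other 2 probe sets had a mean below 50 in every zone and did not pass in any comparison, with log2 differences in zone III versus II of 0.35 and 0.18.

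Casp2, the initiator of the PIDDosome, was highest in zone I. It read 874, 816, 1045 and 991 in zone I, 533, 619, 592 and 636 in zone II, and 635, 619, 562 and 695 in zone III. All zone I arrays were above all others. Casp2 fell in zone II versus I by 0.64 ± 0.12 on the log2 scale (limma adjusted p = 0.00102) and was lower in zone III than in zone I by a difference of -0.57 ± 0.12 (adjusted p = 0.00197). Zones II and III differed by 0.08 ± 0.12 (adjusted p = 0.625), a difference whose sign depended on the scaling: it was -0.17 with each array centred on its median and 0.47 with each centred on ribosomal protein genes, where it passed (adjusted p = 0.00555).

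Casp6, an executioner caspase that cuts lamins, was highest in zone III. Its signals were 325, 280, 275 and 281 in zone I, 313, 310, 343 and 299 in zone II, and 480, 419, 474 and 454 in zone III. Zones I and II overlapped, and every zone III array was above them. Casp6 rose in zone III versus II by 0.53 ± 0.10, 1.44-fold (limma adjusted p = 8.5e-04), and was 0.65 ± 0.10 or 1.57-fold above zone I (adjusted p = 2.4e-04). In zone II versus I the difference was 0.12 ± 0.10 (adjusted p = 0.366), and it was -0.12 with ribosomal centring. Its other probe set had a mean below 50 in every zone and did not pass, with a log2 difference in zone III versus II of -0.04.

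Of other caspases, Casp14 (an epidermal caspase) was tested on 1 probe set and did not pass in any comparison, at 136 ± 21.4, 152 ± 26.5 and 186 ± 36.8 in zones I, II and III (SD, n = 4). With ribosomal centring its log2 difference in zone III versus II was 0.68 (adjusted p = 0.00519).

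Of the 11 inflammasome partners listed, 5 were tested. Of these, 2 fell and 0 rose in zone II versus I, 2 rose and 1 fell in zone III versus II, and 1 was lower in zone III than in zone I. Over all probe sets tested, 15.1% rose and 22.2% fell in zone II versus I, and 28.5% rose and 20.9% fell in III versus II. In III versus I these shares were 21.0% and 19.0%, and the list counts that follow are to be read beside them. Gsdmd, the pore-forming gasdermin that Casp1 and Casp4 cut, was 50 ± 3.27, 11.6 ± 10.6 and 109 ± 17.5 in zones I, II and III (SD, n = 4). It fell by 2.48 ± 0.42 and then rose by 3.59 ± 0.42 on the log2 scale (SE, limma adjusted p = 6.2e-04 and 1.7e-05). Its mean was near the filter in zone I and under it in zone II, so these sizes rest on low signals and were in part a condition of being tested. Pycard, the adaptor that joins sensors to Casp1, was 222 ± 51.1, 62.9 ± 19.4 and 202 ± 17.0, falling by 1.85 ± 0.21 and then rising by 1.73 ± 0.21 (adjusted p = 3.1e-05 and 2.4e-05). Il18, a cytokine that Casp1 matures, went the other way in zone III and fell by 0.81 ± 0.12 from zone II (adjusted p = 1.1e-04), from 208 ± 27.2 to 118 ± 6.33. The sensor Nlrp3 and its partner Nek7 did not pass in any comparison (with ribosomal centring Nek7 rose by 0.41 in zone III versus II, adjusted p = 0.0197), and Il1b, Il1a and the sensor Aim2 were under the filter with zone means no higher than 45.3. The median over the 5 tested partners was -0.19 in zone II versus I and 0.01 in zone III versus II.

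In the death receptor pathway upstream of Casp8, 7 of 14 listed genes were tested. Of these, 3 fell and 0 rose in zone II versus I, 4 rose and 0 fell in zone III versus II, and 3 were higher in zone III than in zone I; the medians were -0.27, 0.79 and 0.44. Tnfrsf1a, the main receptor of tumour necrosis factor, was 616 ± 43.9, 558 ± 127 and 1145 ± 138 in zones I, II and III, a rise of 1.06 ± 0.16 in zone III versus II (limma adjusted p = 1.5e-04). Ripk3, a kinase of necroptosis that Casp8 restrains, fell by 0.60 ± 0.12 and then rose by 1.11 ± 0.12 (adjusted p = 0.00226 and 1.1e-05). Cflar, the catalytically inactive relative of Casp8 that restrains it, fell by 0.50 ± 0.14 and rose by 0.93 ± 0.14 (adjusted p = 0.0162 and 1.6e-04). The adaptor Fadd rose in zone III versus II by 0.79 ± 0.23 (adjusted p = 0.0121), a call lost with quantile normalization (0.53, adjusted p = 0.0785) or median centring (0.55, adjusted p = 0.057), and Cyld, a deubiquitinase, fell by 0.48 ± 0.13 in zone II versus I (adjusted p = 0.0127). The falls of Cflar and Cyld did not pass with quantile normalization or median centring, so that 1 gene of the list fell in zone II versus I under each, and under each 3 rose and 1 fell in zone III versus II. Fas, Fasl, Tnfsf10, Tnfrsf10b, Tnf and Mlkl were under the filter, with zone means no higher than 30.4.

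Of the 4 apoptosome and PIDDosome partners, which bring Casp9 and Casp2 together for activation, 3 were tested: 1 rose in zone II versus I, 1 fell in zone III versus II and 0 were called in zone III versus I by limma. Apaf1, the apoptosome scaffold, was 330 ± 33.2, 295 ± 45.0 and 329 ± 16.2 in zones I, II and III, and Cradd, which bridges Casp2 to the PIDDosome, was 53.8 ± 8.90, 56.6 ± 16.8 and 52.7 ± 6.66; neither passed in any comparison, except that with ribosomal centring Apaf1 fell by 0.41 in zone II versus I and rose by 0.57 in zone III versus II (limma adjusted p = 0.0442 and 0.00645). Cycs, cytochrome c, rose by 0.53 ± 0.10 in zone II versus I (limma adjusted p = 0.00171) and fell by 0.45 ± 0.10 to zone III (adjusted p = 0.00321), both of which did not pass with quantile normalization (0.20 and 0.02); the fall was -0.05 with ribosomal centring. The list medians were 0.04, -0.06 and 0.00, in the order zone II versus I, III versus II and III versus I.

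Of the 7 caspase inhibitors and their antagonists, 2 rose and 3 fell in zone II versus I, 1 rose and 1 fell in zone III versus II, and 1 was higher and 3 were lower in zone III than in zone I, with medians of 0.15, -0.20 and -0.05. These counts depended on the scaling: with median centring 3 rose and 1 fell in zone II versus I and 0 rose and 5 fell in zone III versus II, and with ribosomal centring 0 rose and 3 fell in zone II versus I and 1 rose and 0 fell in zone III versus II. Xiap, the direct inhibitor of Casp9, fell by 0.69 ± 0.12 in zone II versus I (limma adjusted p = 6.5e-04) and rose by 0.34 ± 0.12 to zone III (adjusted p = 0.0298), the latter lost with median centring (0.09). Birc5, which also serves in cell division, and Birc2 were lower in zone III than in zone I by -0.74 ± 0.14 and -0.52 ± 0.12 (adjusted p = 0.001 and 0.00361). Birc3 was higher, by 0.86 ± 0.27 (adjusted p = 0.021). Of the mitochondrial antagonists, Htra2 rose by 0.55 ± 0.16 in zone II versus I (adjusted p = 0.0167), a call that was lost with ribosomal centring (0.30), and Diablo fell by 0.33 ± 0.12 in zone III versus II (adjusted p = 0.0343), a difference that was 0.06 with ribosomal centring.

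**Figure D4:**
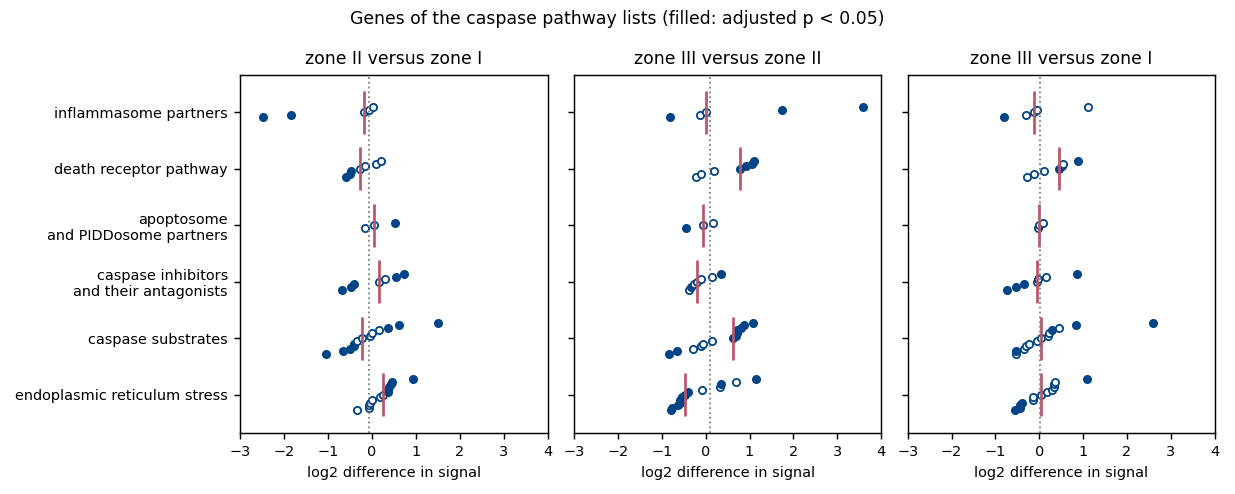
Log2 difference in signal for each tested gene of 6 lists around the caspases, by comparison. Filled points have an adjusted p under 0.05, red bars are list medians and the dotted line is the median over all probe sets tested. The death receptor list has its median at 0.79 in zone III versus II and the endoplasmic reticulum stress list at -0.47.

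All 13 genes listed as caspase substrates were tested: 3 rose and 5 fell in zone II versus I, 7 rose and 2 fell in zone III versus II, and 3 were higher and 1 was lower in zone III than in zone I. The medians were -0.23, 0.63 and 0.05. The 3 of 13 that were higher in zone III than in zone I lay near the share over all probe sets tested, 21.0%. With median centring 4 rose and 2 fell in zone II versus I, 6 rose and 4 fell in zone III versus II and 2 were higher and 2 lower in zone III than in zone I, and with ribosomal centring the first and last of these were 1 and 6, and 5 and 0. Gsn, an actin-severing protein, rose at each step, from 273 ± 67.2 to 782 ± 206 and 1635 ± 209 (log2 differences of 1.51 ± 0.20 and 1.09 ± 0.20, limma adjusted p = 1.1e-04 and 7.0e-04). Pak2, a kinase released by cleavage, rose in zone III versus II by 0.88 ± 0.11 (adjusted p = 3.9e-05) and Sptan1, the spectrin alpha chain, by 0.70 ± 0.10 (adjusted p = 8.2e-05). Lmna, which encodes the lamins that Casp6 cuts, fell by 1.05 ± 0.23 and then rose by 0.72 ± 0.23 (adjusted p = 0.00324 and 0.0203), the rise being lost with median centring (0.47). Gsdme, the gasdermin of executioner caspases, took the other direction from Gsdmd: it rose by 0.62 ± 0.15 in zone II versus I and fell by 0.84 ± 0.15 to zone III (adjusted p = 0.00582 and 4.5e-04), the rise being lost with ribosomal centring (0.37).

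Among endoplasmic reticulum stress genes, listed beside Casp12, 6 of 13 rose and 0 fell in zone II versus I, 8 fell and 2 rose in zone III versus II, and 1 was higher and 4 were lower in zone III than in zone I, with medians of 0.26, -0.47 and 0.04. These counts depended on the scaling. With quantile normalization 1 rose in zone II versus I, and 1 rose and 5 fell in zone III versus II. With ribosomal centring 1 rose in zone II versus I, 3 rose and 2 fell in zone III versus II, and 3 were higher and 0 lower in zone III than in zone I. Sdf2l1, a chaperone cofactor, rose in zone II versus I by 0.94 ± 0.19 (limma adjusted p = 0.00225), and Atf6, a sensor of unfolded proteins, rose in zone III versus II by 1.15 ± 0.15, from 80.7 ± 12.7 to 177 ± 6.66 (adjusted p = 4.3e-05). Hsp90b1 and Xbp1 fell in zone III versus II by 0.79 ± 0.12 and 0.76 ± 0.10 (adjusted p = 1.2e-04 and 6.3e-05). Ddit3, the stress-induced factor also called CHOP, did not pass in any comparison.

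Pairs of caspases were also compared across the 12 arrays. The log2 signals of Casp1 and Casp8 had a Pearson correlation of 0.94, Casp4 and Casp8 of 0.92 and Casp1 and Casp4 of 0.82, whereas Casp2 correlated with Casp12 (0.74) and was opposite to Casp6 (-0.53). Read from the probe set that stands for each gene, Casp12 correlated less with its neighbours Casp1 (0.52) and Casp4 (0.60) than with Casp2. The second Casp12 probe set, which had a deeper minimum in zone II, was not used here, and this order may differ on it. All points share the zone of their array, so the values describe zone profiles and carry no test. Among all genes that passed the filter, the 3 most like Casp1 by this measure were Mcoln1 (0.978), Brinp1 (0.974) and Kcne3 (0.973), and the 3 most like Casp4 were Hs3st1 (0.968), Fam210b (0.945) and Gbp7 (0.941). For Casp8 they were Ifi202b (0.982), Inka1 (0.980) and Kank4 (0.976), for Casp9 Glb1 (0.972), Hip1 (0.971) and Arhgef12 (0.971), and for Casp6 Chst1 (0.984), Gadd45a (0.982) and Ptp4a3 (0.973). The genes most like Casp2 were Snx16 (0.953), 4930523C07Rik (0.947) and Il17rb (0.935), and those most like Casp12 were Ly6h (0.961), Agtr1a (0.959) and Smarca2 (0.957).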

How the data were processed

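The authors deposited 1 intensity per probe set and array, called a signal in the text, on a linear scale and scaled to the same trimmed mean on all arrays. The study's methods name GCRMA and RMA and the submitters' processing notes name RMA, but the values are not on a log scale and run down to 0.012; the sources used here do not name the algorithm behind them. Detection calls were not used, so low signals were not called absent, and precision is limited by the 4 arrays per zone.

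The logarithm to base 2 of the deposited signal was taken with nothing added. Control probe sets (64) were left out. Of the probe sets, 34945 had 1 gene symbol in the platform annotation, 932 had several and 9160 had none. One model with zone as its term was fitted to the 12 arrays with limma 3.58.1 in R 4.3.3 (lmFit, contrasts.fit, eBayes), with 3 contrasts and Benjamini-Hochberg adjustment within each over the 22255 probe sets kept; the script was tested on simulated data. The paper's filter, a signal of 50, was followed as a zone mean. Named were all 7 caspases, the 3 genes most correlated with each caspase, and a selection from each gene list. That selection did not strictly follow the order of adjusted p and includes genes that were not called. The members and the gene lists were chosen with earlier results of these data known. Alternatives covered the filter, scaling, offset, arrays in the fit, variance model, array weights, the replicate letter or fluidics run as a block, other probe sets and leaving out each array. Fluidics runs come from time stamps in the array experiment files; each of the 3 runs held 4 arrays and all 3 zones. Promoters were read from a RefSeq table (GRCm38.p6) that held all 7 genes; Casp4 has 2 entries there, of which the upstream one is shown.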

Additional observations from a re-analysis of the deposited data

Results flagged for a closer look

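In each zone the array farthest from the others was compared with Dixon's 95% critical value for each caspase, on the linear signals and not on log2 signals. Of 21 groups, 4 exceeded it, where chance flags about 1 in 20 groups of normally distributed values. High values stand out less on the log2 scale, on which the ratio was not computed, so the number of flags is a description. Casp1 read 13.9 in zone II replicate A, while the other zone II arrays lay between 0.518 and 1.43. Casp1 read 125 in zone III replicate B, with the others between 83.2 and 89.8. Casp12 read 50.1 in the same zone III replicate B, with the others between 25.5 and 29.0. Casp6 read 325 in zone I replicate A, with the others between 275 and 281.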

How the results depend on the processing

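Of 504 log2 differences of the 7 caspases under alternative settings, 474 kept direction and side of the threshold, 16 newly passed, 8 no longer passed and 6 changed sign, 3 of them differences that had passed and 3 that had not (Casp6 in zone II versus I, -0.12 with ribosomal centring and -0.18 on its other probe set, and Casp2 in III versus II, -0.17 with median centring). Many settings could change only the adjusted p and not the log2 difference, so its direction was fixed there. These were the changes of filter, the fit to only the 8 arrays compared and the variance trend. The block on replicate letter and leaving out an array of the zone not compared were others. The 474 are therefore a description and not a measure of stability. Numbers of caspases called stayed at 5 to 6, 5 to 7 and 5 to 7 for zones I to II, II to III and I to III in all settings but a floor of 100, where they were 2, 2 and 2, since Casp1, Casp4, Casp9 and Casp12 drop out. Scaling shifted the whole table: the median log2 difference over all probe sets was 0.11, -0.15 and -0.05 with median centring and -0.32, 0.49 and 0.16 with ribosomal centring. From zone I to II 3368 probe sets rose and 4946 fell, against 5417 and 3435 with median centring and 1493 and 7820 with ribosomal centring; from zone II to III 6348 rose and 4660 fell, against 4514 and 7121, 11176 and 1863, and 5099 and 5524 with quantile normalization. Relative to those medians, the rise of Casp12 from zone II to III was lost with quantile normalization (0.82, adjusted p = 0.0604) and median centring (0.82, 0.0564), Casp6 passed from zone I to II with median centring (0.31, 0.0405) and Casp9 fell there with ribosomal centring (-0.61, 0.0123). Casp8 passed between zones I and III with ribosomal centring (0.56, 0.0164), and Casp4 with 16 added (0.82, 0.0176). Opposite in sign were Casp1 from zone I to II (0.13) and Casp12 from zone II to III (-0.21) within the first fluidics run, out of 48 within-run values of called differences, and low probe sets of Casp6 (-0.04 in zone III versus II, -0.22 in III versus I) and Casp9 (-0.0043 in III versus I). With limma blocked on replicate letter, only the Casp8 call in zone III versus I changed, and it passed (0.40, adjusted p = 0.0387). Of 12 same-letter array pairs 8 had correlated deviations above 0.1 (-0.13 to 0.26), and pairs with different letters ran from -0.3 to 0.23. These ranges overlap, so they do not settle whether same-letter arrays share a litter. The study's methods count each litter as 1 experiment, but no array label ties the letters to litters. The fit without a block was therefore kept as the main one. The causes were not tested. Low signals limit the size of the Casp1, Casp4 and Casp12 differences.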
